A study of Mus musculus with 64 samples.

Results

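The cyclin-dependent kinase inhibitor genes Cdkn1a, Cdkn1b, Cdkn1c, Cdkn2a, Cdkn2b, Cdkn2c and Cdkn2d were taken from the expression table by gene ID, and all 7 were found among its 36332 distinct IDs. RNA had been sequenced from liver, skeletal muscle and omental fat of 2 genotypes, each at 5 and 20 months of age. In the KO mice Myc had been deleted throughout the body: they came from a cross between a strain with Cre-ERT2 at Gt(ROSA)26Sor, a locus active in nearly all cell types, and a strain with the floxed Myc allele Myctm2Fwa, and tamoxifen switches this Cre on. The WT mice were C57/B6. Both genotypes were weaned, left to reach 15 g and then injected with tamoxifen 5 times (75 mg/kg). Strain background and Cre therefore go together with genotype and cannot be told apart from the loss of Myc. For adipose tissue, and likewise for liver, there were 6 young WT, 6 young KO, 5 old WT and 5 old KO libraries; for muscle the numbers were 6, 4, 5 and 5. The older mice are coded with an 18 in their library names but labelled 20 months elsewhere, and 20 is used here. Mice are named by a genotype letter and their number (W5277, K5218).

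Cyclin-dependent kinases drive the cell cycle and are held back by small inhibitor proteins of 2 families. The Cip/Kip proteins, p21 from Cdkn1a, p27 from Cdkn1b and p57 from the imprinted gene Cdkn1c, bind kinases together with their cyclins and act mainly on Cdk2 complexes. The Ink4 proteins, p16Ink4a from Cdkn2a, p15Ink4b from Cdkn2b, p18Ink4c from Cdkn2c and p19Ink4d from Cdkn2d, bind Cdk4 and Cdk6 and keep cyclin D from them, so that the retinoblastoma protein stays active. Cdkn2a makes a further protein, p19Arf, from its own upstream first exon in another reading frame. Arf stabilises p53, and p53 in turn activates Cdkn1a. Myc is known to repress Cdkn1a and Cdkn2b together with the factor Miz1, and p16Ink4a is widely used as a marker of senescence and age in rodent tissues.

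The 64 libraries held 15.4 to 28.5 M reads on genes. Values are deposited CPM, a read signal scaled per library by the authors, and differences are on the log2(CPM + 1) scale, tested two-sided with limma over all genes that passed an expression filter; a gene is called at an adjusted p under 0.05. Myc itself ran from 2.87 to 10.5 CPM in KO and from 11.2 to 22.8 CPM in WT adipose libraries at 5 months, and from 1.16 to 4.04 against 5.46 to 33.7 CPM in liver, with no overlap in either tissue. In muscle at that age the Myc values overlapped, at 5.00 to 17.1 CPM in KO and 6.15 to 81.3 CPM in WT. Adipocyte, hepatocyte and muscle marker lists were each highest in their own tissue, but 1 old WT muscle library, W18S42, held 2802 CPM of hepatocyte markers (group median 4.41); leaving it out changed no call of a member. A list of 12 epididymis genes summed to between 1069 and 7763 CPM in 4 young adipose libraries (3 KO, 1 WT) and to 144 CPM in 1 young WT muscle library, and its part in the values was not tested except by leaving those 5 libraries out. The 12 libraries with Xist came from 4 mice of 5 months (W5041, W5042, K5116 and K5118), so sex goes in part with age. In bulk tissue, fewer cells of a type and less RNA per cell cannot be told apart, and p-values measure the spread between libraries.

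The sequences upstream of Cdkn1a, Cdkn2a and Cdkn2c are shown because the results below turn on these genes, and each has a pair of start sites that the gene-level values add up. Each run holds 250 bases before a RefSeq start on GRCm38.p6, written 5′ to 3′ in the direction of transcription. Capitals mark the Sp1 GC box (GGGCGG or its reverse complement), the CCAAT box on either strand, and matches to the p53 decamer motif.
Cdkn1a upstream start: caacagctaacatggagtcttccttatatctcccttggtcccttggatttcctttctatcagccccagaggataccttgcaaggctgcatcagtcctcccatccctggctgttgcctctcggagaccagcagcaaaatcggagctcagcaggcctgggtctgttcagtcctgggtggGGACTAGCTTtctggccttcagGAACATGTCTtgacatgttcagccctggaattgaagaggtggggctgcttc
Cdkn1a downstream start: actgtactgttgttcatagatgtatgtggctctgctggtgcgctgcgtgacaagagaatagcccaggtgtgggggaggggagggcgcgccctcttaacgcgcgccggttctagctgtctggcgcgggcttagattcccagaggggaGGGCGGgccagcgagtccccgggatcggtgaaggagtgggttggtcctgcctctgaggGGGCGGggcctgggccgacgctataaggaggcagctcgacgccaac
Cdkn2a upstream start: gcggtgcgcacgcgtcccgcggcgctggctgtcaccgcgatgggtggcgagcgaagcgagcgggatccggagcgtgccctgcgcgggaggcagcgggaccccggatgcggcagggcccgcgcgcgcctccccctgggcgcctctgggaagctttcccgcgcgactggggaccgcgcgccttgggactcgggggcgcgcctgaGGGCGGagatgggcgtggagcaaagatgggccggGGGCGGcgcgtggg
Cdkn2a downstream start: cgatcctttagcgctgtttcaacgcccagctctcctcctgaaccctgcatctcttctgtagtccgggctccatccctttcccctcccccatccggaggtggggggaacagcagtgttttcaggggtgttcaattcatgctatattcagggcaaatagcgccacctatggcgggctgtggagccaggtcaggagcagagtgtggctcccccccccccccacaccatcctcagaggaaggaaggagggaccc
Cdkn2c upstream start: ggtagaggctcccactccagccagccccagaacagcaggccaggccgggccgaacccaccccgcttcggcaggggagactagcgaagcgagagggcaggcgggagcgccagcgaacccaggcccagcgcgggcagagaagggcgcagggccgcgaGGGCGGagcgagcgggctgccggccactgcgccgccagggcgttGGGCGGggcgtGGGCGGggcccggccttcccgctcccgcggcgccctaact
Cdkn2c downstream start: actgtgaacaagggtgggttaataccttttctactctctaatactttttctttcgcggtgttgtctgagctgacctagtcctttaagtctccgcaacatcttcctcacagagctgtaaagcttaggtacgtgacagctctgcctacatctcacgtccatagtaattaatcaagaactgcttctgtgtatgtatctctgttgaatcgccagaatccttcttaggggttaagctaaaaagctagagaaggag

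The Cdkn1a runs lie on the plus strand at chr17:29090729-29090978 and chr17:29093519-29093768. The Cdkn2a runs lie on the minus strand at chr4:89294620-89294869, before the first exon of Arf, and chr4:89282193-89282442, before the first exon of p16Ink4a, and the Cdkn2c runs on the minus strand at chr4:109666757-109667006 and chr4:109665373-109665622. The table held 9 starts for 6 of the members, and Cdkn1c was not matched. The E-box CACGTG, the site that Myc binds with Max, was in none of the 9 runs and in 6.02% of 32851 RefSeq runs of the same length. The E2F sites TTTCGCGC and TTTGGCGC were also in none of the 9, against 0.256% and 0.417% of all runs. The upstream Cdkn1a run held 2 p53 decamers, a motif in 7.13% of all runs, and the upstream Cdkn2c run held 3 GC boxes, a motif in 32.7% of all. In the Cdkn2d run, 1 p53 decamer overlapped 1 of its 3 GC boxes. The upstream run of Cdkn2c had a G+C content of 77.2% and the downstream run 42.8%. These matches are letters in a window and do not show binding.

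The members differed widely between tissues. In WT mice of 5 months, 6 of 7 members were called between adipose tissue and liver (71.7% of 16240 genes tested were), 5 of 7 between adipose tissue and muscle (70.4%) and 4 of 7 between liver and muscle (72.3%), so these counts are near those of genes at large. Per kilobase of exon, Cdkn1a was the highest of the 7 in each tissue, at 144 CPM per kb in muscle, 65.0 in liver and 39.6 in adipose tissue. It made up 84.2% of the summed level per kilobase of the 7 genes in liver and 77.8% in muscle. In adipose tissue its share was 36.0%, followed by Cdkn2c at 26.2% and Cdkn1c at 22.1%. Cdkn2a was the lowest in adipose tissue (0.71 CPM per kb) and muscle (0.0372), and Cdkn2b the lowest in liver (0.176). The plot of all members by group shows these levels.

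**Figure D1:**
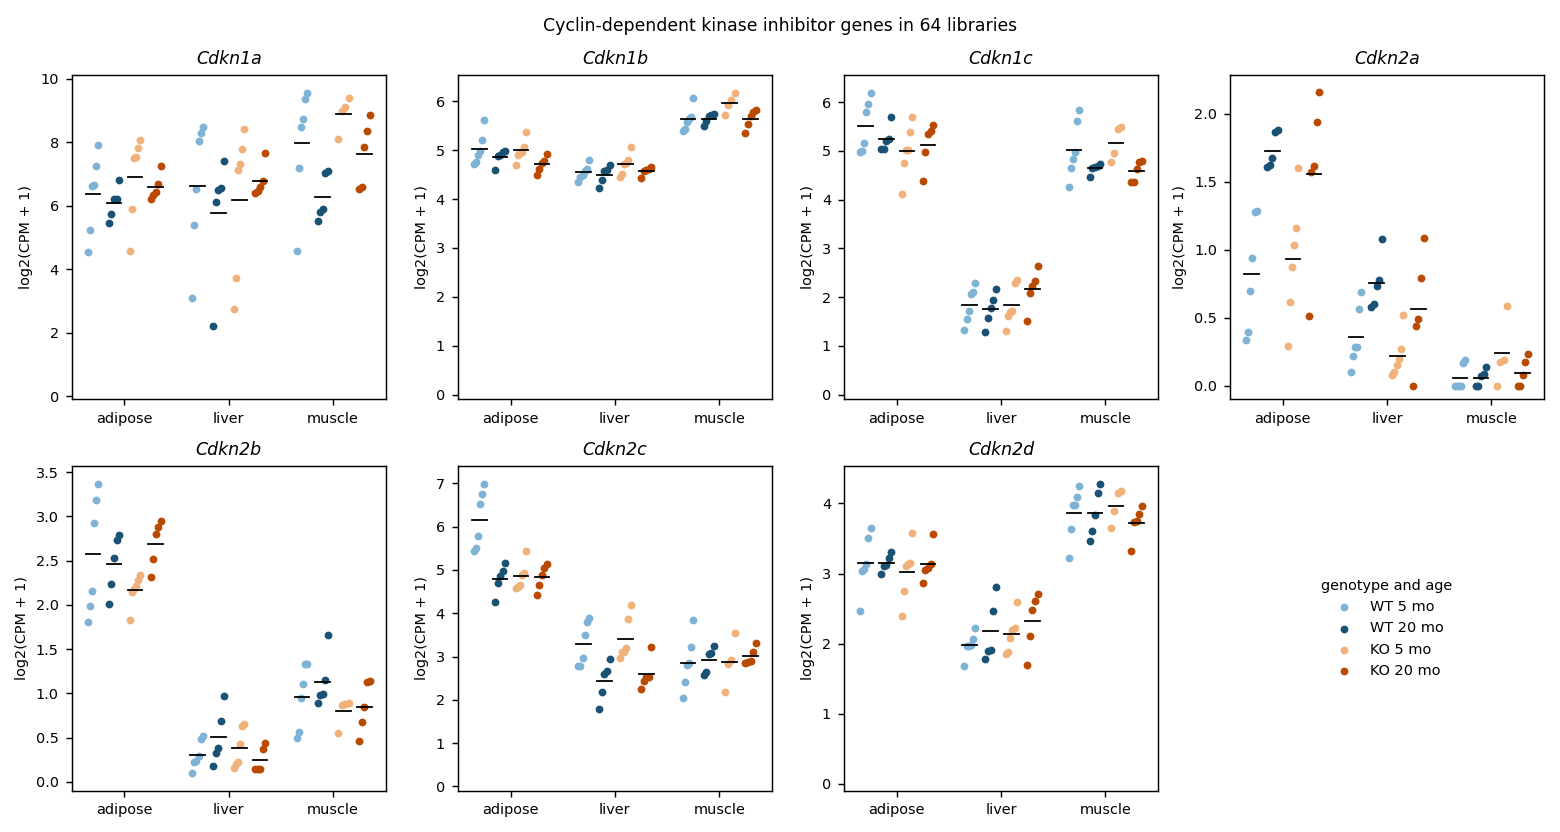
Level of each member, as log2(CPM + 1) on the vertical axis, in every library of the 12 groups, sorted by value within a group; black lines are group means. Cdkn1c and Cdkn2b were lowest in liver, Cdkn2c highest in young WT adipose tissue, and Cdkn1a varied most among libraries of the same group.

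Among the Cip/Kip genes, Cdkn1a (gene ID 12575, chr17:29090979-29100722) had no called difference between tissues. Its young WT values ran from 22.1 through a median of 98.4 to 242 CPM in adipose tissue, from 7.61 through 174 to 352 CPM in liver, and from 22.9 through 388 to 750 CPM in muscle, and the 3 ranges overlapped. Muscle exceeded adipose tissue by 1.61 on the log2 scale (SE 0.81, limma adjusted p = 0.0722). It was called in edgeR (adjusted p = 0.0173), in DESeq2 (0.00465), with sex as a covariate (0.0468), and without adipose tissue of mouse W5041 or muscle of mouse W5277 (0.01 at the lowest).

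Cdkn1b (12576, chr6:134920401-134925525), whose protein p27 holds cells in quiescence, was the most even member. Its young WT values were 25.1 to 48.2 CPM in adipose tissue (median 29.6), 19.5 to 26.8 in liver (22.2) and 41.1 to 66.2 in muscle (47.9), and the liver and muscle ranges did not overlap. The difference of liver from muscle was -1.08 ± 0.12 (SE, limma adjusted p = 6.45e-12). Adipose tissue was higher than liver by 0.48 ± 0.12 (limma adjusted p = 0.000368). Among libraries without Xist it was higher by 0.25 ± 0.13, which was not called (limma adjusted p = 0.0692). It was lower than muscle by 0.60, a direction that turned to 0.25 higher when each library was scaled to 1 M reads.

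Cdkn1c (12577, chr7:143458339-143461059) encodes p57, the inhibitor made from the maternal allele alone. It ran from 30.5 to 72.3 CPM in young WT adipose tissue (median 44.5) and from 18 to 56.4 CPM in muscle (28.9), and from 1.51 to 3.91 CPM in liver (2.73). Every liver library lay below every adipose and muscle library. The mean was 17.6-fold higher in adipose tissue and 12.7-fold higher in muscle than in liver, with log2 differences of 3.67 ± 0.24 (limma adjusted p = 9.4e-21) and 3.18 ± 0.24 (SE, adjusted p = 2.5e-18). Adipose tissue and muscle did not differ past the threshold (0.49 ± 0.24, limma adjusted p = 0.0611). They did when each library was scaled to 1 M reads (1.34) and without adipose tissue of mouse W5005, W5006 or W5041 or muscle of mouse W5004 or W5007 (adjusted p = 0.0139 at the lowest).

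Among the Ink4 genes, Cdkn2b (12579, chr4:89306289-89311032) ran from 2.49 to 9.34 CPM in young WT adipose tissue (median 5.02), from 0.412 to 1.53 in muscle (1.04) and from 0.0722 to 0.438 in liver (0.199). Adipose tissue stood above both others without overlap, by 2.26 ± 0.19 over liver (limma adjusted p = 2.76e-16) and 1.61 ± 0.19 over muscle (adjusted p = 4.33e-11). Muscle exceeded liver by 0.66 ± 0.19 (limma adjusted p = 0.00157). Cdkn2a (12578, chr4:89274473-89294619), which is separated from Cdkn2b by 11669 bases, was also highest in adipose tissue, but lowest in muscle and at lower levels. It ran from 0.264 to 1.44 CPM in young WT adipose tissue (median 0.768) and from 0.0738 to 0.617 CPM in liver (0.218), and was at 0 in 4 of 6 muscle libraries. Adipose tissue was higher than liver by 0.47 ± 0.18 (limma adjusted p = 0.0184) and than muscle by 0.76 ± 0.18 (adjusted p = 0.000167). The first of these calls was lost without adipose tissue of mouse W5006 or of mouse W5277 (limma adjusted p = 0.0690 and 0.0683).

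Cdkn2c (12580, chr4:109660876-109666756), which has been tied to fat cell differentiation, was likewise highest in adipose tissue. Its young WT values were 42.6 to 126 CPM in adipose tissue (median 72.8), 5.83 to 13.9 in liver (8.50) and 3.12 to 13.3 in muscle (6.10). All adipose libraries lay above all liver and muscle libraries, while those of liver and muscle overlapped. The mean in adipose tissue was 8.38-fold that in liver (log2 difference 2.88 ± 0.26, limma adjusted p = 4.82e-15) and 11.3-fold that in muscle (3.31 ± 0.26, adjusted p = 3.01e-17). Cdkn2d (12581, chr9:21288459-21291421) was instead highest in muscle and lowest in liver. It ran from 8.37 to 18.1 CPM in young WT muscle (median 14.7), from 4.53 to 11.6 in adipose tissue (7.55) and from 2.20 to 3.65 in liver (2.93). Liver lay below both others without overlap, by 1.88 against muscle (SE 0.19, limma adjusted p = 2.77e-13) and 1.16 against adipose tissue (adjusted p = 2.65e-07). The excess of muscle over adipose tissue, 0.72 ± 0.19 (limma adjusted p = 0.000731), turned to a deficit of muscle (0.0759 higher in adipose tissue) when each library was scaled to 1 M reads.

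When the 12 groups of a member were ordered by mean, most neighbours overlapped in range. All 11 neighbouring pairs overlapped for Cdkn1a, Cdkn1b, Cdkn2a and Cdkn2d, 10 of 11 for Cdkn1c and Cdkn2b, and 9 of 11 for Cdkn2c. The overlap was not counted over all genes, so these counts do not set the members apart. Over the 12 group means, the genes most like Cdkn1c were Galnt16, Plcd1 and Slc4a3 (Pearson r of 0.99 each), and those most like Cdkn2d were Vegfb, Cdk16 and Adgrl1 (0.99 or more). For Cdkn2c they were Nxnl1, 2010016I18Rik and Opn3 (0.97 to 0.98), and for Cdkn1b Med27, Wfdc1 and Kdm4b (0.98 each). Scaf1, B4galt1 and D130037M23Rik were the closest to Cdkn1a, at r of 0.92 to 0.93. These points share tissue differences, and the values are descriptions.

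Between KO and WT mice, 1 change was called among the inhibitor genes. Cdkn2c was lower in KO than in WT adipose tissue at 5 months, and was 1 of 15 genes called among 14286 tested (0.105%). The 6 WT libraries ran from 42.6 through a median of 72.8 to 126 CPM, and the 6 KO libraries from 22.9 through 26.4 to 42.1 CPM. Every KO library lay below every WT library, with mouse K5118 just under mouse W5041. Mean Cdkn2c was 77.4 ± 35.3 CPM in WT and 28.5 ± 7.25 CPM in KO (SD, n = 6 each), 2.72-fold lower, and fell by 1.32 on the log2 scale (SE 0.24, limma adjusted p = 0.0322). Mice W5005, W5006 and W5277 held the 3 high values (91.3 to 126 CPM), and mice W5041, W5042 and W5299 ran from 42.6 to 54.3 CPM. The size held among libraries without Xist (-1.68, adjusted p = 0.00569).

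The call for Cdkn2c was not kept in 5 of 12 fits that left out 1 adipose library at a time, with an adjusted p of 0.103 without mouse W5005. Without the 4 adipose libraries that carried epididymis transcripts, the difference was -1.31 (limma adjusted p = 0.106). Without the expression filter it was -1.32 and also not called (limma adjusted p = 0.0624). In the same comparison a list of 5 fibroblast markers summed to 702 to 1723 CPM in KO and 1282 to 4237 CPM in WT, and 7 adipocyte markers to 6698 to 24341 CPM in KO and 12416 to 26747 CPM in WT, and their part in the result was not tested. A list of 6 T cell markers separated the genotypes without overlap, at 15.2 to 26.1 CPM in KO and 5.48 to 14.8 CPM in WT, and its part was not tested. A list of 6 exocrine pancreas markers summed to 6.69 to 18.5 CPM in KO and 4.34 to 29.3 CPM in WT.

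The other 6 members were not called in adipose tissue at 5 months. Cdkn2b and Cdkn1c had negative differences, with Cdkn2b at 3.51 ± 0.518 CPM in KO and 5.49 ± 2.91 in WT (SD, n = 6 each; -0.41, limma adjusted p = 0.496) and Cdkn1c at 32.7 ± 11.9 and 47.4 ± 17.7 CPM (-0.52, adjusted p = 0.434). Cdkn1a stood at 156 ± 95.0 CPM in KO and 108 ± 80.4 CPM in WT, a difference of 0.53 ± 0.55 (SE). In young liver none of the 5 members tested was called (0.0696% of 12924 genes were), and their differences lay between -0.45 and 0.17. In young muscle none of 6 members was called, nor was any of the 13237 genes tested (0%; 543 had a raw p under 0.05). There Cdkn1b stood at 62 ± 8.14 CPM in KO (n = 4) and 49.2 ± 9.05 CPM in WT (n = 6), a difference of 0.33 ± 0.13 (SE) at a raw p of 0.0149 in limma and an adjusted p of 1. The reduction of Cdkn2c in adipose tissue was larger than the change in liver by 1.44 (SE 0.36, limma adjusted p = 0.0736) and than that in muscle by 1.32 (SE 0.39, adjusted p = 0.232), and no member passed the threshold in these comparisons of KO effects. The background there was 0.216% for adipose tissue against liver and 0% for each of the others. Among libraries without Xist both differences passed (-1.77, adjusted p = 0.00477, and -1.68, adjusted p = 0.0256).

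At 20 months no member was called between KO and WT in any tissue, and few genes were, at 0% in adipose tissue (321 genes had a raw p under 0.05), 0.0232% in liver and 0.0302% in muscle. Myc itself was not called at that age either. It ran from 5.14 to 9.72 CPM in KO and 8.10 to 16.3 CPM in WT adipose tissue (-0.63, limma adjusted p = 1), and from 1.75 to 10.2 against 4.97 to 13.1 CPM in muscle (-0.49, adjusted p = 0.663). In old liver the Myc ranges did not overlap, at 1.12 to 2.92 CPM in KO and 5.36 to 7.61 CPM in WT (-1.16, limma adjusted p = 0.547). Old adipose Cdkn2c was 18.3, 25.2, 28, 30.7 and 34.6 CPM in WT and 20.6, 24.1, 28.7, 32.2 and 34.2 CPM in KO. The ranges nearly coincided, at a difference of 0.04 ± 0.27 (SE, limma adjusted p = 1). Old muscle Cdkn1a was 90.1, 94.5, 229, 329 and 465 CPM in KO and 45, 54.6, 58.2, 130 and 135 CPM in WT. KO held the 3 highest values and the ranges overlapped, and the difference of 1.37 ± 0.71 was not called (limma adjusted p = 0.392). In liver the Cdkn1a difference of 1.01 ± 1.10 rested on 1 old WT library, W18L04, at 3.63 CPM beside 69.0 to 168 CPM in the other 4, and was 0.12 without it. No edgeR or DESeq2 fit on the recovered reads called a member at 20 months, and no member had a raw p under 0.05 in limma.

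**Figure D2:**
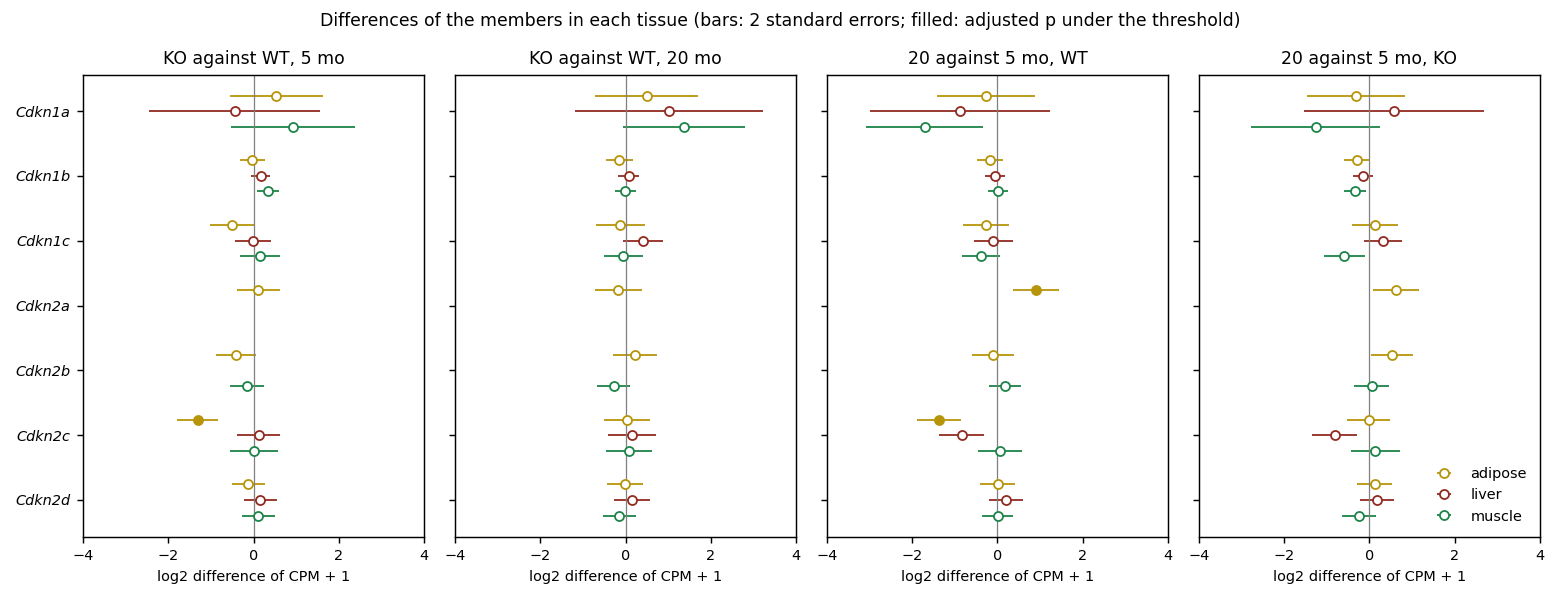
Differences of the members on the log2(CPM + 1) scale (horizontal axis) by tissue, for the effects of genotype (KO less WT) and of age (20 less 5 months); bars are 2 standard errors and filled points were called by limma. Cdkn2c in adipose tissue was lower in young KO and in old WT mice, Cdkn2a in adipose tissue was higher in old WT mice, and the intervals of Cdkn1a were the widest.

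In WT ageing 2 of 7 members were called in adipose tissue, where 10.8% of genes were, and the pair moved in opposite directions. Cdkn2a, at 0.264 through 0.768 to 1.44 CPM in the 6 young libraries, was 2.04, 2.08, 2.19, 2.64 and 2.69 CPM in the 5 old ones. Every old library lay above every young one. The means were 0.832 ± 0.524 and 2.33 ± 0.312 CPM (SD, n = 6 and 5), 2.80-fold higher with age, and the rise of 0.91 ± 0.27 (SE) passed in limma (adjusted p = 0.0344). This call depended on single libraries: it held in 4 of 11 fits without 1 library, with adjusted p up to 0.0818 (without mouse W5042). In limma the adjusted p was 0.0602 with sex as a covariate, 0.118 among libraries without Xist and 0.0624 without the expression filter. The adjusted p was 0.0626 in edgeR on reads, against 0.0295 in DESeq2. The young WT median lay under the filter's 1 CPM and every old WT value above it, so the old libraries helped Cdkn2a to pass the filter.

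Cdkn2c went the other way. Old WT adipose tissue held 18.3 to 34.6 CPM, all below the lowest young value of 42.6 CPM. The mean was 2.83-fold lower, at 27.4 ± 6.14 CPM (SD, n = 5), and fell by 1.37 on the log2 scale (SE 0.26, limma adjusted p = 0.00251). This call held in all 9 other settings and in all 11 fits without 1 library, with adjusted p up to 0.0105. It shares the young WT libraries with the KO comparison above, so the 2 results are not independent: Cdkn2c was high in young WT adipose tissue and stood between 18.3 and 42.1 CPM in the libraries of the other adipose groups. The hepatocyte marker sum in WT adipose tissue was 478 to 4889 CPM at 5 and 155 to 550 CPM at 20 months, and its part in both ageing results was not tested. The 6 T cell markers summed to 5.48 to 14.8 CPM at 5 and 16.9 to 65.5 CPM at 20 months, again without overlap. B and plasma cell markers had medians of 62.5 and 154 CPM, and exocrine pancreas markers 15.8 and 27.8 CPM, with overlapping ranges. The part of these lists in the rise of Cdkn2a and the fall of Cdkn2c was not tested either.

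In KO ageing no member was called in adipose tissue (14.2% of genes were), liver (2.99%) or muscle (5.57%). Adipose Cdkn2a ran from 0.223 through 0.943 to 2.03 CPM in 6 young KO libraries and was 0.424, 1.97, 2.07, 2.84 and 3.47 CPM in 5 old ones. Of these, 3 of 5 old values lay above all young ones, and K18F28 was the low one. The difference was 0.63 ± 0.27 (SE, limma adjusted p = 0.107), and 0.89 without K18F28 (adjusted p = 0.0175). Adipose Cdkn2c differed by -0.02 ± 0.26 with age in KO, at 28.5 ± 7.25 and 27.9 ± 5.62 CPM (SD, n = 6 and 5). The interaction of genotype and age for Cdkn2c was 1.35 ± 0.36 (SE) at a raw p of 0.00117, and did not pass over all genes (limma adjusted p = 0.998). No gene passed that test in limma in adipose tissue (0%), liver (0%) or muscle (0%), where 407, 507 and 438 had a raw p under 0.05, with Cdkn2c in adipose tissue the only member at a raw p under 0.05, and neither edgeR nor DESeq2 called a member.

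**Figure D3:**
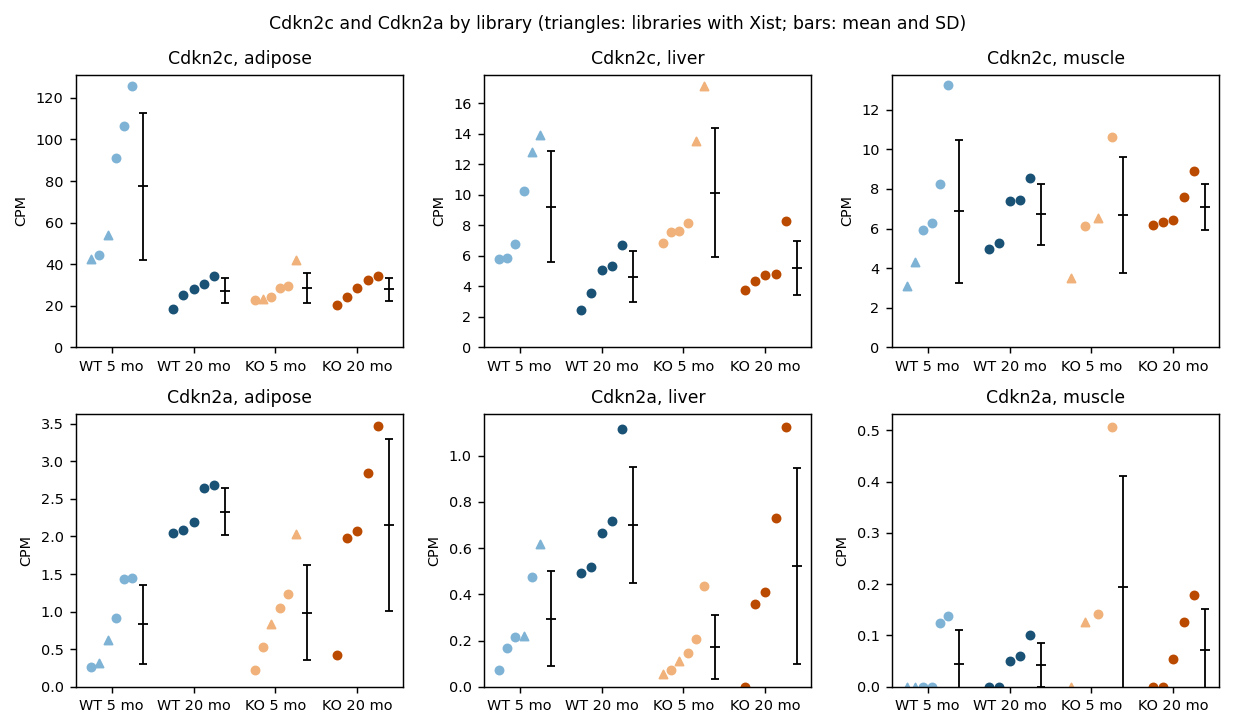
Cdkn2c (top) and Cdkn2a (bottom) in CPM on the vertical axis for each library of the 4 groups of each tissue, sorted by value within a group; triangles are libraries with Xist and bars give the mean and SD. Young WT adipose tissue held the highest Cdkn2c, 42.6 to 126 CPM, and old WT adipose Cdkn2a, 2.04 to 2.69 CPM, lay above the young WT range.

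In liver none of the 5 members tested was called in WT ageing, where 7.19% of genes were. Cdkn2c ran from 5.83 through 8.50 to 13.9 CPM in young and was 2.47, 3.55, 5.08, 5.36 and 6.74 CPM in old WT liver, with 4 of 5 old values below all young ones. The difference of -0.84 ± 0.27 fell just short (SE, limma adjusted p = 0.0562). In KO liver it was 10.2 ± 4.21 CPM at 5 and 5.20 ± 1.76 CPM at 20 months (SD, n = 6 and 5; -0.81, limma adjusted p = 0.0949). DESeq2 called both liver differences (adjusted p = 0.0224 and 0.0382). The 4 highest young liver values came from the 4 mice with Xist, and among libraries without Xist the differences were -0.56 in WT and -0.50 in KO (adjusted p = 0.193 and 0.202).

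Liver Cdkn2a and Cdkn2b and muscle Cdkn2a were under the expression filter and were compared with two-sided exact permutation tests, adjusted over 12 tests. Liver Cdkn2a was 0.49, 0.518, 0.664, 0.715 and 1.12 CPM in old WT mice against 0.0738 to 0.617 CPM in young ones, with 3 of 5 above all young values (exact p = 0.0173, adjusted p = 0.208). In KO liver it was 0.524 ± 0.424 CPM at 20 and 0.171 ± 0.139 CPM at 5 months (SD, n = 5 and 6; exact p = 0.0844, adjusted p = 0.362). Muscle Cdkn2a did not exceed 0.505 CPM in any library and was at 0 in 9 of 20, and none of the 12 tests passed after adjustment.

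Muscle had the largest ageing difference in size, but no call among its 6 members tested, while 18.6% of genes were called. Cdkn1a ran from 22.9 through 388 to 750 CPM in young WT muscle and was 45, 54.6, 58.2, 130 and 135 CPM in old WT muscle. The mean was 4.62-fold lower, yet mouse W5277 held the lowest value of both ages, and the difference of -1.71 ± 0.68 was not called (SE, limma adjusted p = 0.0818). It passed in edgeR (adjusted p = 0.0218) and DESeq2 (0.00395) on reads and without mouse W5277 (-2.39, adjusted p = 0.00191). Among libraries without Xist it was -0.97 (adjusted p = 0.401). Cdkn1c in KO muscle was 35.8 ± 8.93 CPM at 5 months and 23.2 ± 3.52 CPM at 20 months (SD, n = 4 and 5; -0.58, limma adjusted p = 0.144).

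The ageing of WT mice was also compared between tissues. Cdkn2c fell more in adipose tissue than in muscle, by 1.44 (SE 0.38, limma adjusted p = 0.00826), and Cdkn2a rose more, by 0.91 ± 0.27 (adjusted p = 0.0162), where 14.7% of genes were called. The Cdkn2c difference was called in each of 10 other settings and 22 fits without 1 library, with adjusted p up to 0.0205. That of Cdkn2a was lost with a pseudocount of 0.1 (adjusted p = 0.132), in edgeR (0.470), in DESeq2 (0.422) and among libraries without Xist (0.0812). Muscle Cdkn2a was below that tissue's filter, at means of 0.0436 CPM in young and 0.0424 CPM in old WT mice. The Cdkn2a difference of 0.91 therefore repeats the rise in adipose tissue and says little about ageing in muscle. No member was called between adipose tissue and liver (6.15% of genes) or between liver and muscle (3.51%).

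Cdkn1a varied more within groups than most genes whose mean over a tissue's libraries reached 5 CPM; genes of a similar level were not compared alone. Its within-group SD on the log2 scale was 1.93 in liver, 1.25 in muscle and 1.03 in adipose tissue, where the median of those genes was 0.266, 0.238 and 0.343. Only 0.345%, 0.851% and 2.45% of those genes had a larger SD. Cdkn1b lay at the other end, with SDs of 0.17, 0.19 and 0.24, and at least 69.8% of those genes varied more in each tissue.

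The same mice had high or low Cdkn1a in different tissues. Mouse W5277 had 7.61 CPM in liver, 22.1 in adipose tissue and 22.9 in muscle, the lowest young WT value of each tissue. Mouse W5041 had the highest, with 352, 242 and 750 CPM. Mice K5218 and K5248 were the lowest KO mice in adipose tissue (22.8 and 59.0 CPM) and liver (5.74 and 12.2 CPM). Across 11 mice of 5 months with both tissues, log2 Cdkn1a in adipose tissue and liver had a Pearson r of 0.92 (permutation p = 0.00092, adjusted over 21 relations 0.0193) and a Spearman rho of 0.84 (permutation p = 0.00254, adjusted 0.0267). The r was 0.81 without the 2 mice farthest from the median, 0.96 on deviations from genotype means and 0.92 among 7 mice without Xist. Over 9 mice, liver and muscle had an r of 0.94 (exact permutation p = 0.00728, adjusted 0.051) and a rho of 0.85 (p = 0.00607, adjusted 0.0425), and over 8 mice adipose tissue and muscle had an r of 0.91 (exact permutation p = 0.0373, adjusted 0.189) and a rho of 0.52 (exact permutation p = 0.197, adjusted 0.413). These 2 relations rested on mice W5277 and W5299, since without them r was 0.36 and -0.50.

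**Figure D4:**
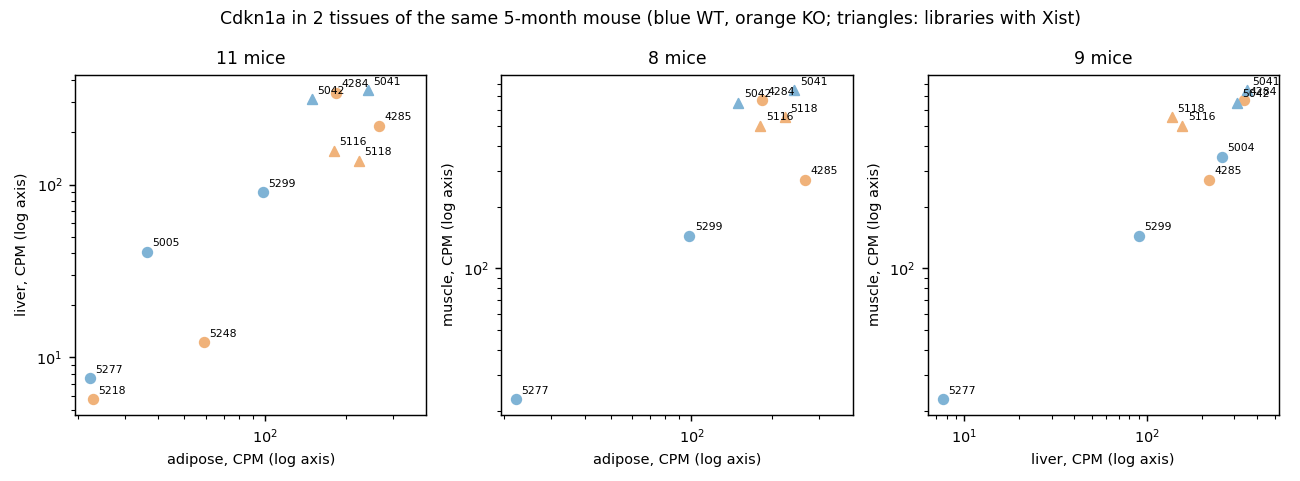
Cdkn1a in CPM in 2 tissues of the same 5-month mouse, on log axes, for each pair of tissues; blue points are WT, orange KO, triangles mice with Xist, and numbers name the mice. Mouse W5277 was low in all 3 tissues and mice K5218 and K5248 in the 2 tissues they share with others, while mouse W5041 was high in all 3.

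Of the other 6 members, only Cdkn2a had a relation between tissues that passed adjustment, and it was inverse. Across the 11 mice, adipose and liver Cdkn2a had an r of -0.79 (permutation p = 0.0026, adjusted 0.0273) and a rho of -0.87 (permutation p = 0.00106, adjusted 0.0223), with an r of -0.93 without the 2 farthest mice. Liver Cdkn2a stood at 0.0568 to 0.617 CPM in these mice, values of few reads. Cdkn1b had an r of -0.58 between adipose tissue and liver (permutation p = 0.045, adjusted 0.189).

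Within tissues, the genes whose deviations from group means were most like those of Cdkn1a differed by tissue. They were Fosl2, a subunit of the AP-1 transcription factor, Map3k6 and Pnpla7 in adipose tissue (r of 0.89 to 0.91 over 22 libraries). In liver they were Plin5, a lipid droplet protein, Rnf144a and Def8 (0.93 to 0.96 over 22), and in muscle Map2k3, a kinase of the p38 pathway, Sdc4 and the metallothionein Mt1 (0.94 to 0.95 over 20). A list of glucocorticoid and fasting response genes followed Cdkn1a at r over 0.5 in 11 of 15 genes in adipose tissue, 8 of 15 in liver and 13 of 16 in muscle, with medians of 0.67, 0.56 and 0.81. Of all genes tested, 14.2%, 14.5% and 13.0% reached that r. A list of p53 targets, the class to which Cdkn1a belongs, reached it in 4 of 24, 4 of 23 and 6 of 21 genes. Other lists also exceeded the share of all genes in adipose tissue. Among them were mesothelium markers (5 of 6), senescence-associated genes (7 of 15) and clock genes (6 of 17). Proliferation genes (1 of 28) did not, and in liver no mesothelium or senescence gene reached that r. The glucocorticoid list also followed muscle Cdkn1c in 10 of 16 genes (median 0.52), beside 11.97% of all genes. In adipose tissue and liver none of its 15 tested genes followed Cdkn1c at that r. These correlations are across libraries that share mice and handling, and carry no p.

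Within adipose tissue, the deviations of 5 of 6 Ink4 pairs had an r over 0.5. The deviations of Cdkn2b and Cdkn2c had an r of 0.79 over 22 libraries, those of Cdkn2a and Cdkn2c 0.65, Cdkn2a and Cdkn2d 0.60, Cdkn2a and Cdkn2b 0.56 and Cdkn2c and Cdkn2d 0.54. Cdkn2b and Cdkn2d had an r of 0.46. Of all genes, 9.40% reached an r of 0.5 with adipose Cdkn2a, 9.77% with Cdkn2b, 13.1% with Cdkn2c and 19.1% with Cdkn2d. With members below the filter left out, there was 1 Ink4 pair in liver (Cdkn2c and Cdkn2d, r of -0.14) and 3 in muscle (-0.36 to 0.33), so the tissues are not compared. The genes most like adipose Cdkn2c were Emc9, Ptpa and Pmf1 (0.89 to 0.92). Of a list of 28 proliferation genes, 15 followed adipose Cdkn2c at r over 0.5 (median 0.51), beside the 13.1% of all genes. The genes most like adipose Cdkn2a were Ifi30, a lysosomal thiol reductase, Leprotl1 and Ncf4, a subunit of the phagocyte oxidase (0.84 to 0.88). Of 7 macrophage markers tested, 6 followed adipose Cdkn2a at r over 0.5 (median 0.61), against 9.40% of all genes. The summed macrophage markers ran from 703 to 1289 CPM in young and from 751 to 1624 CPM in old WT adipose tissue, and their part in the Cdkn2a difference was not tested. None of 6 T cell or 6 B and plasma cell markers followed adipose Cdkn2a at r over 0.5. Of the exocrine pancreas list only Cela1 passed the filter, with an r of 0.72 with Cdkn2a and 0.83 with Cdkn2c. The other genes of that list were not tested, and its sum also had a median of 6.94 CPM in young WT liver, so Cela1 alone is not read as a sign of pancreas.

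No gene of the 10 pathway lists examined was called with Myc loss in any tissue at either age. No more than 0.105% of all genes were called in any KO comparison, so this absence does not set the lists apart. Of the 37 cyclin, kinase, retinoblastoma and E2F genes, 36 passed the filter for adipose tissue, 32 for liver and 31 for muscle, and their median KO differences lay between -0.16 and 0.01, beside -0.04 to 0.01 for all genes. The 28 proliferation genes had a median of -0.40 in young KO adipose tissue, with none called. In WT ageing, cyclin, kinase, retinoblastoma and E2F genes were called in 3 of 36 cases in adipose tissue (10.8% of all genes were), 2 of 32 in liver (7.19%) and 7 of 31 in muscle (18.6%), shares near those of all genes. Cdk4, the kinase that the Ink4 proteins bind, fell from 47.7 to 30.3 CPM in adipose tissue (-0.61, limma adjusted p = 0.0242) and from 52.3 to 38.4 CPM in liver (-0.42, adjusted p = 0.0243). Rb1, the retinoblastoma gene, rose in adipose tissue of WT (0.75, limma adjusted p = 0.0078) and KO mice (0.76, adjusted p = 0.00681). Ccnd3, a partner cyclin of Cdk4, fell in liver and muscle of WT mice (-0.61 in each, limma adjusted p = 0.0443 and 0.0130).

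Of 24 p53 targets, 4 rose and 1 fell in WT adipose tissue with age, where 10.8% of all genes were called, and 4 rose and 4 fell of 21 in WT muscle, where 18.6% were. Muscle Eda2r, a death receptor, rose from 54.8 to 103 CPM in WT (by 1 on the log2 scale, limma adjusted p = 0.0291) and from 29 to 80.6 CPM in KO (1.42, adjusted p = 0.0212). Muscle Btg2 and Sesn1 fell by 2.36 and 2.11 in WT (limma adjusted p = 0.0373 and 0.0191). Of 20 regulators of the Ink4 and Arf locus, 19 were tested. In WT ageing 1 was called in adipose tissue (10.8% of all genes were), 1 in liver (7.19%) and 2 in muscle (18.6%). In KO ageing 1 was called in adipose tissue (14.2%), none in liver (2.99%) and 1 in muscle (5.57%). None of these shares of the list exceeded that of all genes. Bmi1, the Polycomb protein known to silence this locus, rose in muscle of WT (0.55, limma adjusted p = 0.00838) and KO mice (0.49, adjusted p = 0.0432). Ets1, an activator of p16Ink4a, rose in adipose tissue of WT (by 1 on the log2 scale, limma adjusted p = 0.0300) and KO mice (0.92, adjusted p = 0.0369). Of 13 genes of inhibitor turnover, 1 was called in WT adipose tissue (10.8% of all genes were). This was Cks1b, which helps degrade p27 and fell (-0.68, limma adjusted p = 0.0377). In WT muscle 4 of 11 tested were called (18.6% of all genes were), 3 higher and 1 lower.

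Of the glucocorticoid and fasting genes, 10 of 16 fell in WT muscle with age and none rose (median -1.34, beside 0.03 for all genes), 6 of 15 fell in WT liver (median -0.58) and 2 of 15 in WT adipose tissue (median -0.83). Of all genes, 18.6%, 7.19% and 10.8% were called in these comparisons, in either direction. All libraries with Xist were young, and the part of sex in the list counts was not tested. Muscle Ddit4, a repressor of mTOR signalling, fell from 483 to 18.3 CPM (-3.90, limma adjusted p = 0.00723), and the metallothioneins Mt1 and Mt2 fell too (-3.53 and -3.93, limma adjusted p = 0.00958 and 0.0119). In KO ageing, 4 of 15 fell in adipose tissue and none rose (median -0.90), where 14.2% of all genes were called. None of 15 was called in KO liver (median -0.64, 2.99% of all genes called). None of the 16 was called in KO muscle (median -0.75, beside -0.02 for all genes, of which 5.57% were called). Of 18 circadian clock genes, 3 rose and 2 fell in WT muscle, beside 18.6% of all genes called, among them Per1 (-1.34, limma adjusted p = 0.00722), which glucocorticoids also induce. Of 14 TGF-beta, Smad and FoxO genes, 3 were called in WT muscle (18.6% of all genes were) and 2 in WT adipose tissue (10.8%), near those shares. In WT muscle Foxo1 and Foxo3, activators of Cdkn1a and Cdkn1b, fell (-1.70 and -1.03, limma adjusted p = 0.0409 and 0.0136). Cdkn1b itself differed there by 0.01 (limma adjusted p = 0.948). Smad7 rose in WT adipose tissue (1.35, limma adjusted p = 0.00600). Of 15 senescence-associated secreted and nuclear genes tested in adipose tissue, 3 rose in WT ageing and none fell (10.8% of all genes were called). Those that rose included Mmp12 and Tnf (1.90 and 0.69, limma adjusted p = 0.0423 and 0.0407). Of 12 imprinted growth genes tested in muscle, 4 were called in WT ageing (18.6% of all genes were) and 2 in KO ageing (5.57%). Among them, H19, a neighbour of Cdkn1c in the same imprinted region, fell in muscle of WT (-1.49, limma adjusted p = 0.00256) and KO mice (-1.52, adjusted p = 0.00937).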

How the data were processed

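RNA sequencing values were those of 1 table of 64 libraries by gene ID. The authors deposited them under a CPM heading as a read signal whose library sums ran from 0.529 to 1.64 M, so they are not plain counts per M. The labels' protocols name oligo-dT selection and a strand-marking kit, and the submitters' processing notes name GRCm38.p6 and mm10; the aligner, annotation and use of strand are not given in the sources used here. Whole reads were recovered from the steps of the deposited signal (100% of values whole within 0.01), giving 15.4 to 28.5 M reads per library (median 19.6 M).

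Differences were tested with limma 3.58.1 (R 4.3.3) with a mean-variance trend on log2(CPM + 1), for genes that exceeded 1 CPM in a number of libraries no smaller than the smallest group size, with 4 groups per tissue and all 12 groups jointly between tissues. P-values were two-sided and adjusted by Benjamini-Hochberg over all genes tested, with a threshold of 0.05. Members below the filter were given exact permutation tests (SciPy 1.17.1). The fits were tested on simulated data. Alternatives were a pseudocount of 0.1, no filter, libraries scaled to 1 M, TMM factors, edgeR 4.0.16 and DESeq2 1.42.0 on the recovered reads, sex as a covariate, libraries without Xist alone, a replicate block by mouse, and each library left out in turn. Leaving out the 5 libraries with epididymis transcripts was chosen after seeing the data.

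Same-numbered libraries of different tissues come from the same mouse at 5 months; their block correlation in the joint fit was 0.0458. The named genes were the 7 members, Myc, the 3 genes most like each member by Pearson r (over group means, or over deviations from group means within a tissue, at a mean of at least 5 CPM), and up to 3 called genes with the largest rise and fall in each pathway list. Members and lists were chosen with earlier results of these data known. Promoters came from RefSeq on GRCm38.p6.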

Additional observations from a re-analysis of the deposited data

Results flagged for a closer look

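In 5 of 84 groups of 4 to 6 libraries, 1 library stood apart from the rest by Dixon's criterion, and chance flags about 1 in 20 groups. Cdkn1a was 3.63 CPM in liver library W18L04, where the other 4 old WT livers held 69.0 to 168 CPM. Cdkn1b was 23.1 CPM in old WT adipose library W18F24, and Cdkn1c was 21.1 CPM in old WT muscle library W18S72, each the lowest of its group. Cdkn2b was lowest in young KO adipose library K5F5248, at 2.55 CPM, and in young KO muscle library K5S5118, at 0.465 CPM.

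The effect of age in WT mice differed between adipose tissue and muscle for 2 members. The difference was 0.91 on the log2 scale for Cdkn2a (limma adjusted p = 0.0162) and -1.44 for Cdkn2c (limma adjusted p = 0.00826). The Cdkn2a call was lost in limma with a pseudocount of 0.1 (adjusted p = 0.132) and among libraries without Xist (0.0812). It was also lost in edgeR (adjusted p = 0.470) and DESeq2 (0.422). Muscle Cdkn2a was near the floor, at means of 0.0436 CPM in young and 0.0424 CPM in old WT mice.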

How the results depend on the processing

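The count of members called between KO and WT at 5 months went from 1 to 0 without the expression filter and without the libraries with epididymis transcripts, and ran from 0 to 1 over fits that left out 1 library. That at 20 months stayed at 0 in each setting, as did the interaction. The count for WT ageing was 2, and 1 without the filter, with sex as a covariate and in libraries without Xist, and 4 in DESeq2, with 1 to 4 over fits without 1 library. It was also 2 in edgeR, for Cdkn2c in adipose tissue and Cdkn1a in muscle. For KO ageing it was 0, and 1 in DESeq2 (0 to 1 without 1 library). For KO effects between tissues it was 0, and 1 in DESeq2 and 2 in libraries without Xist (0 to 1 without 1 library). For WT ageing between tissues it was 2, and 1 with a pseudocount of 0.1, in edgeR, in DESeq2 and in libraries without Xist (2 to 2 without 1 library). Between tissues 15 of 21 were called, with 14 to 17 over all settings and fits without 1 library. With the replicate block by mouse, which pairs tissues of 1 mouse, the counts were 15 between tissues, 0 for KO effects and 2 for WT ageing, and it changed no call. Scaling to 1 M reads per library reversed Cdkn1b (0.25, adjusted p = 0.0691 in limma) and Cdkn2d (0.0759, adjusted p = 0.723) between adipose tissue and muscle. It moved the median of all genes in that comparison from 0.18 to 0.80, and the share of calls higher in adipose tissue from 57.8% to 81.0% (against liver, from 53.7% to 84.6%). The causes of these changes were not tested. Reads limit Cdkn2a most: 1 read was worth 0.0204 to 0.0882 CPM.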
